A study of Mus musculus with 6 samples.

Results

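The 9 genes described here encode the enzymes that take squalene epoxide to lanosterol and lanosterol on to cholesterol: Lss, Cyp51, Tm7sf2, Msmo1, Nsdhl, Hsd17b7, Ebp, Sc5d and Dhcr7. They are 9 of the 38561 genes counted in every pool, matched by symbol through the annotation. They were chosen by their place in the pathway with the difference between the genotypes in these same pools already known, so their values are a description with no test, and the rule has no threshold. RNA came from scraped small intestinal mucosa of C57BL/6J mice, aged 8 to 12 weeks by the labels. It was sequenced after oligo deoxy-T selection as 3 pools labelled Rbm47-IKO and 3 pools of controls. By the labels a pool held RNA from 3 mice, with both sexes used, and they do not say that a mouse entered only 1 pool. The study's methods give a wider range of ages and, at the upper end, more mice per pool. Rbm47-IKO mice lack Rbm47, an RNA-binding protein, in the intestinal epithelium through a constitutive villin-Cre transgene, which acts in the small and large intestine and not in the other cells of the mucosa. The controls are named wild type in the labels and floxed Rbm47 fl/fl mice in the study's methods.

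Cholesterol is built in the endoplasmic reticulum from acetyl-CoA through mevalonate and squalene. Lanosterol is the first sterol of the route, and it loses its extra methyl groups and has its double bonds moved or reduced before it becomes cholesterol. The genes of the route are classic targets of SREBP2, a membrane-bound transcription factor that is released when sterols in the membrane run low. In the small intestine this synthesis runs beside the uptake of sterol from food and bile.

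The targeted gene did not follow the labels. Rbm47 (ENSMUSG00000070780, chromosome 5, 66016549 to 66173117, GRCm38) had 602.7, 624.6 and 619.8 CPM, the count scaled to a common library size, in the pools labelled Rbm47-IKO. It had 459.8, 449.9 and 472.1 CPM in the control pools. The difference was 0.42 on the log2 scale (standard error 0.0997), with an adjusted p of 0.0751 in edgeR and no overlap between the groups. The pools are therefore called the pools labelled Rbm47-IKO throughout. If the genotype labels were exchanged, every direction given here between the groups would turn. Whether they were was not tested, nor whether the counted exons lie outside the deleted part. Summed goblet markers, given further on, were higher in every pool labelled Rbm47-IKO than in every control pool, and enteroendocrine markers lower. The paper reports more goblet and tuft cells and fewer enteroendocrine cells in the small intestine of Rbm47-IKO mice. It also reports more proliferating crypt cells and higher expression of stem cell markers. Summed tuft markers overlapped, at 95.3, 73.8 and 54.9 CPM in the labelled Rbm47-IKO pools and 41.0, 76.3 and 103.8 CPM in the controls. Proliferation markers overlapped too, at 213.1, 157.5 and 126.3 CPM against 246.1, 168.7 and 149.8 CPM. So did stem cell markers, at 41.5, 39.9 and 56.9 CPM against 64.7, 121.7 and 35.1 CPM. Xist, the RNA of the inactive X chromosome, was at 1.09 CPM in control pool 1 and 0.686 CPM in control pool 3, against 40.3 to 258.1 CPM in the other 4 pools, so that these 2 control pools held almost none of an RNA made in female cells, against the labels' statement of both sexes. Depth was 31560320 to 38951830 counts per pool, and the least counted of the 9 enzyme genes had 503 counts in its lowest pool. Enterocyte markers summed to 36083 to 40124 CPM in the labelled Rbm47-IKO pools and 39693 to 42529 CPM in the controls, with none of the 8 markers at 0. Because these are bulk samples, fewer cells of a type and less RNA per cell cannot be told apart.

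Of the 9 enzyme genes, 7 were higher in every pool labelled Rbm47-IKO than in every control pool: Lss, Cyp51, Tm7sf2, Msmo1, Nsdhl, Hsd17b7 and Dhcr7. Their ratios of mean CPM lay between 1.70 and 2.07. Ebp overlapped between the groups, and Sc5d stood the other way, lower in every labelled Rbm47-IKO pool. All 9 genes passed the filter on low counts. In edgeR's quasi-likelihood test over 16425 genes, with an adjusted p of 0.05 or less, 7 of the 9 were called higher and 0 lower, while 8 had an unadjusted p under 0.05, and DESeq2 called 7. Over all genes tested, 1.45% were called higher and 1.25% lower, and every labelled Rbm47-IKO pool lay above every control pool for 11.7% of genes and below for 11.6%. Of the 16425 genes, 2756 had an unadjusted p under 0.05 in edgeR, and DESeq2 called 7.57%. Nothing is read from the contrast between these shares, since the comparison itself helped to choose the genes. The median log2 fold change was 0.84 for the 9 genes and -0.01 for all genes tested.

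The number of genes called changed much more than the folds when 1 pool was left out. These fits also hold fewer pools, and why fewer genes were called was not tested. Without labelled Rbm47-IKO pool 1, without labelled Rbm47-IKO pool 2 or without control pool 3, edgeR called 0 of the 9 genes. In each of these 3 fits 8 of the 9 fell below 0.05 in edgeR before adjustment, not necessarily the same 8 genes. So did 2033, 1729 and 2203 of all genes tested, in the order of these fits. Over all genes those 3 fits called 32, 0 and 11 genes, against 443 with all pools. The number of the 9 called was 4 without labelled Rbm47-IKO pool 3 (119 of all genes), 4 without control pool 1 (335 of all genes) and 6 without control pool 2 (431 of all genes). The median log2 fold change of the 9 lay between 0.77 and 0.87 over the 6 fits that left out a pool.

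**Figure D1:**
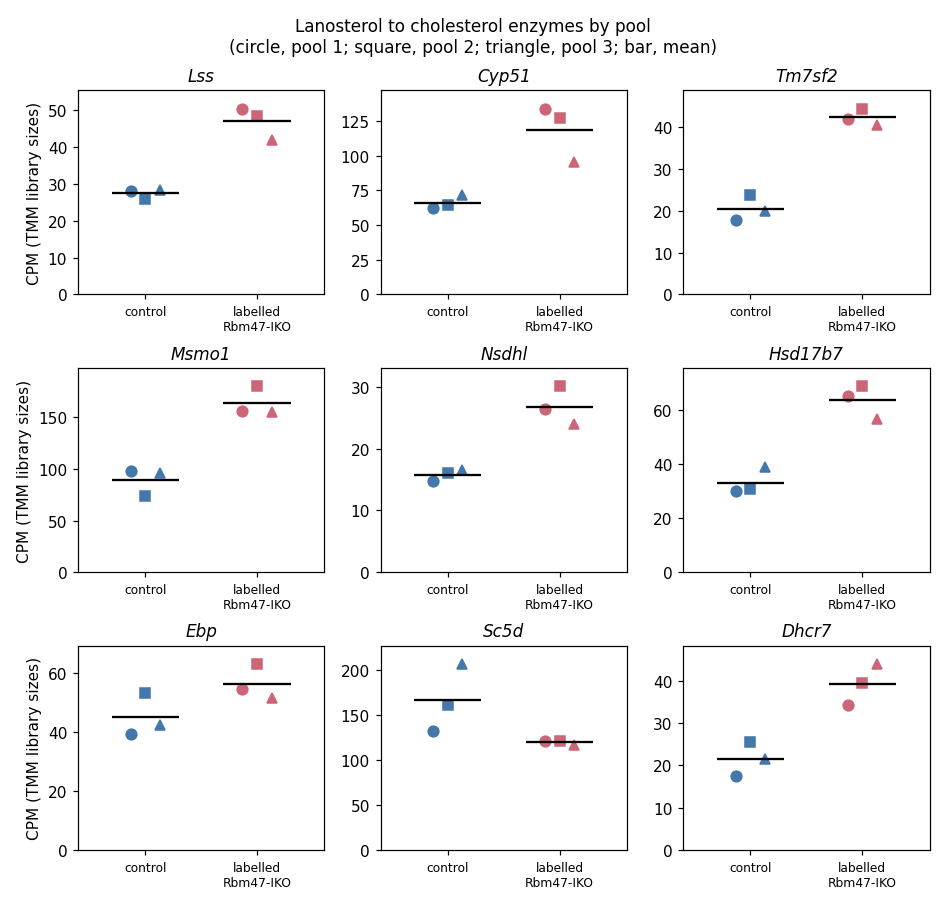
Normalised CPM of the 9 enzyme genes in each pool, 1 panel per gene, with controls in blue, pools labelled Rbm47-IKO in red, pool numbers by symbol and the mean of 3 pools as a bar, on axes that start at 0. The groups separate upward in 7 panels, overlap for Ebp and separate downward for Sc5d, where the controls spread from 131.9 to 206.1 CPM.

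The sequences before 4 of these genes are shown to set beside the values that follow: the 3 whose start region holds a core of the sterol regulatory element (SRE), the sequence SREBP proteins bind, and Sc5d, whose fold had the other sign. Lss, Tm7sf2, Nsdhl and Dhcr7, which were higher in every labelled Rbm47-IKO pool, and Ebp hold no such core in their windows either. The 4 windows are RefSeq windows of GRCm38.p6 from 250 bases before to 50 bases after the gene start, read 5′ to 3′ on the minus strand of chr5:4104648-4104947 (Cyp51), chr8:64733529-64733828 (Msmo1), chr1:169969156-169969455 (Hsd17b7) and chr9:42264251-42264550 (Sc5d). Capitals mark the SRE core forms TCACNCCA and TCACCNCA and the CCAAT box, which reads ATTGG on the other strand.
Cyp51: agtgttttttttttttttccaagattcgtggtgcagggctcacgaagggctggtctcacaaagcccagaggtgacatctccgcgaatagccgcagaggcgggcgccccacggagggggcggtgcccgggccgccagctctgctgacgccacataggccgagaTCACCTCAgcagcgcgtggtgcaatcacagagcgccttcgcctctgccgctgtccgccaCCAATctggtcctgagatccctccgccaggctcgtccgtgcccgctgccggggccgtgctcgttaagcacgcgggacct
Msmo1: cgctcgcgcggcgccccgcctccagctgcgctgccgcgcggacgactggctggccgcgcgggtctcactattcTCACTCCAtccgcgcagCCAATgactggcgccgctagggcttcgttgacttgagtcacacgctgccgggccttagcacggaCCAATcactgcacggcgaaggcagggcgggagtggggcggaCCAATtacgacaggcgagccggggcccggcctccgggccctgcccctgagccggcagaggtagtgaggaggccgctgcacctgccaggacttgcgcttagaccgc
Hsd17b7: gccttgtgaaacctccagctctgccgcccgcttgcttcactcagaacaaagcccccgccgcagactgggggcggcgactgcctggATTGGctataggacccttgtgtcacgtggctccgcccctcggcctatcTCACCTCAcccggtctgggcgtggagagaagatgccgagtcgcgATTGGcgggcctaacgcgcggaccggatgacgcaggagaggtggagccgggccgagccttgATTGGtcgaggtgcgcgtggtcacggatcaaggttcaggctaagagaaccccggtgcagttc
Sc5d: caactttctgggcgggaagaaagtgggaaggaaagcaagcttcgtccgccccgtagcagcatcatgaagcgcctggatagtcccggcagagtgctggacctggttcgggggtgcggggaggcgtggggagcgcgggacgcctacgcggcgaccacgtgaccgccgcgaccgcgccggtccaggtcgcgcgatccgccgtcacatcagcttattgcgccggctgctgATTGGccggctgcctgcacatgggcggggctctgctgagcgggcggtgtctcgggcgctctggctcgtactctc

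In Cyp51 the match TCACCTCA began 88 bases before the start, and the same 8 letters began 117 bases before the start of Hsd17b7. Msmo1 held TCACTCCA 177 bases before its start, with CCAAT boxes at 160, 96 and 55 bases. Sc5d held 1 CCAAT box, 24 bases before its start, and no SRE core of either form. Both strands were searched. Among 32851 windows of the same length, TCACNCCA was in 4.36% and TCACCNCA in 4.42%. The longer core TCACNCCAC, which contains TCACNCCA, was in 1.24% of windows and in none of the 9 genes. All 9 genes had a window in RefSeq, 3 in the case of Dhcr7. CCAAT was in at least 1 window of all 9 genes and in 37.4% of all windows, and the GC box GGGCGG was likewise in all 9 and in 35.7% of windows. The motifs were chosen after the counts were seen, and a match is a description of letters, not of a bound site.

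Lss encodes lanosterol synthase, which folds squalene epoxide into lanosterol and so opens the sterol part of the route (ENSMUSG00000033105, chromosome 10, 76531588 to 76557138). Its CPM was 50.3, 48.4 and 42.0 in the pools labelled Rbm47-IKO and 28.1, 25.8 and 28.3 in the controls. The lowest labelled Rbm47-IKO pool was well above the highest control pool. The means were 46.9 ± 4.40 and 27.4 ± 1.39 (SD, n = 3 pools each), a log2 fold change of 0.77 (standard error 0.11). Lss shares 381 exonic bases with an antisense gene, 4930483K19Rik, which had 12 to 20 counts per pool against 957 to 1835 for Lss. Whether counting used strand is not given in the sources used here.

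Cyp51 is lanosterol 14-alpha-demethylase, the cytochrome P450 that removes the first of the 3 methyl groups and the target of azole drugs in fungi (ENSMUSG00000001467, chromosome 5, 4081145 to 4104746). It had 133.9, 126.9 and 95.3 CPM in the labelled Rbm47-IKO pools. In the controls it had 62.6, 64.5 and 71.4 CPM. Labelled Rbm47-IKO pool 3 stood below the other two and still above every control. The means were 118.7 ± 20.5 and 66.2 ± 4.64 (SD, n = 3 each), a log2 fold change of 0.84 (standard error 0.15). A stretch of 166 bases of its transcripts is 100% identical to a transcript of Akap9, so reads from it may have been assigned to either gene.

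Tm7sf2 encodes a sterol delta-14 reductase, which reduces the double bond that Cyp51 leaves behind (ENSMUSG00000024799, chromosome 19, 6062821 to 6068373). Its CPM was 41.8, 44.4 and 40.6 in the labelled Rbm47-IKO pools against 17.7, 23.8 and 19.9 in the controls. This was the highest ratio of the 9 genes, 2.07, between means of 42.3 ± 1.94 and 20.5 ± 3.08 (SD, n = 3 each), with a log2 fold change of 1.05 (standard error 0.13). The labelled Rbm47-IKO pools lay closer together than the controls. Tm7sf2 shares 532 exonic bases with Vps51 on the same strand, and Vps51 had 937 to 1147 counts per pool. The lamin B receptor gene Lbr encodes a reductase of the same activity and is given with the partners further on.

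Msmo1, Nsdhl and Hsd17b7 encode the 3 enzymes that strip the pair of methyl groups at carbon 4. Msmo1 is the methylsterol monooxygenase that oxidises the methyl group (ENSMUSG00000031604, chromosome 8, 64718139 to 64733792). It had 156.1, 179.9 and 155.2 CPM in the labelled Rbm47-IKO pools and 98.3, 73.8 and 96.4 CPM in the controls. The means were 163.7 ± 13.98 and 89.5 ± 13.7 (SD, n = 3 each), a log2 fold change of 0.87 (standard error 0.14). The lowest control value was in pool 2.

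Nsdhl is the dehydrogenase and decarboxylase that follows (ENSMUSG00000031349, chromosome X, 72918557 to 72958514). It was the gene of the 9 with the lowest CPM, 26.4, 30.0 and 23.9 in the labelled Rbm47-IKO pools against 14.8, 16.1 and 16.5 in the controls. The means were 26.8 ± 3.08 and 15.8 ± 0.874 (SD, n = 3 each), a log2 fold change of 0.76 (standard error 0.13). Hsd17b7 is the ketoreductase that completes the cycle (ENSMUSG00000026675, chromosome 1, 169949535 to 169969241). Its CPM was 65.3, 68.7 and 56.8 in the labelled Rbm47-IKO pools and 30.0, 30.6 and 38.9 in the controls. Control pool 3 was the highest control, still well below the lowest labelled Rbm47-IKO pool. The log2 fold change of Hsd17b7 was 0.94 (standard error 0.14), between means of 63.6 ± 6.16 and 33.2 ± 4.97 (SD, n = 3 each). All 3 carbon 4 demethylation genes were thus raised in each labelled Rbm47-IKO pool relative to each control.

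Ebp encodes the isomerase that moves the double bond of the second ring, known also as the emopamil binding protein (ENSMUSG00000031168, chromosome X, 8185329 to 8193512). Its CPM was 54.7, 63.1 and 51.5 in the labelled Rbm47-IKO pools and 39.6, 53.3 and 42.5 in the controls. Control pool 2 lay above labelled Rbm47-IKO pool 3, so the groups overlapped. The means were 56.5 ± 6.00 and 45.1 ± 7.20 (SD, n = 3 each), with a log2 fold change of 0.32 (standard error 0.14).

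Sc5d encodes the lathosterol oxidase, or sterol C5-desaturase, which puts in the next double bond (ENSMUSG00000032018, chromosome 9, 42254177 to 42264300). It had 121.1, 121.0 and 116.1 CPM in the labelled Rbm47-IKO pools. The controls had 131.9, 161.3 and 206.1 CPM, so that all were above the labelled Rbm47-IKO pools but spread widely. The means were 119.4 ± 2.84 and 166.4 ± 37.4 (SD, n = 3 each), a log2 fold change of -0.48 (standard error 0.16). Sc5d was the only one of the 9 with a fold below 0, and it was not called. Its fold moved most with control pool 3 and was -0.29 without that pool.

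Dhcr7, the 7-dehydrocholesterol reductase, takes the intermediate made by Sc5d to cholesterol, away from the branch to vitamin D (ENSMUSG00000058454, chromosome 7, 143823145 to 143848410). It had 34.3, 39.4 and 44.0 CPM in the labelled Rbm47-IKO pools and 17.6, 25.5 and 21.5 CPM in the controls. The means were 39.2 ± 4.81 and 21.5 ± 3.93 (SD, n = 3 each), with a log2 fold change of 0.87 (standard error 0.16). The last 2 steps of the route, through Sc5d and Dhcr7, therefore stood on opposite sides of the controls.

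**Figure D2:**
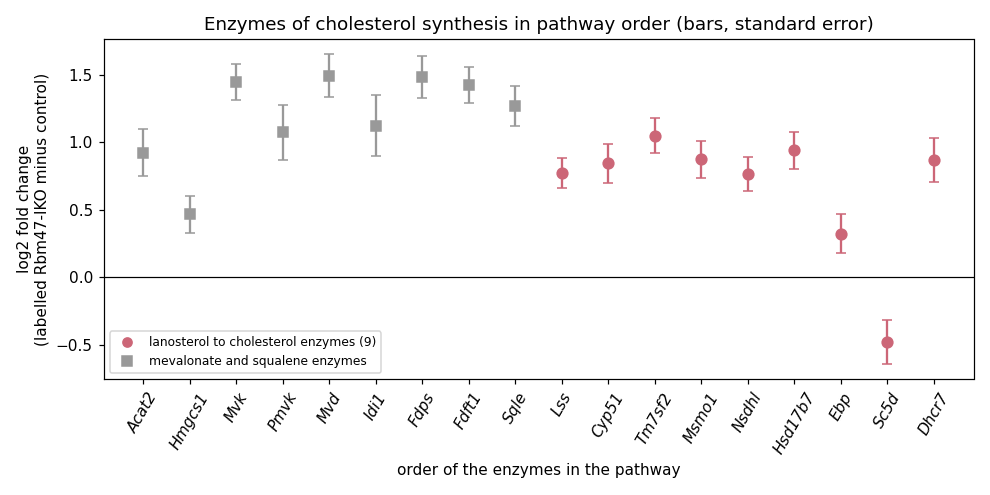
Log2 fold change, labelled Rbm47-IKO minus control, with its standard error, for genes of the route in pathway order from acetyl-CoA to cholesterol, with the 9 late enzymes as red circles and the mevalonate and squalene enzymes that are reported here as grey squares. Of the genes shown, which leave out the side branch gene Ggps1, all but Sc5d have folds above 0, and among the late enzymes they run from -0.48 at Sc5d and 0.32 at Ebp to 1.05 at Tm7sf2.

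Levels between genes were compared per length, as RPKM, the CPM divided by the gene's length in kilobases, from the same counts. In the controls the order of mean RPKM was Sc5d, Ebp, Cyp51, Msmo1, Hsd17b7, Tm7sf2, Dhcr7, Nsdhl and Lss. Sc5d was far above the rest at 71.5 ± 16.1 RPKM (SD, n = 3), and Ebp followed at 19.5 ± 3.12 RPKM. Cyp51 at 15.4 ± 1.08 RPKM and Msmo1 at 14.6 ± 2.22 RPKM overlapped. Hsd17b7, Tm7sf2, Dhcr7 and Nsdhl, from 6.50 ± 0.974 down to 5.53 ± 0.306 RPKM, each overlapped the next. Lss was lowest at 2.54 ± 0.129 RPKM, apart from Nsdhl. The counted exons of Lss add up to 10787 bases, the longest of the 9, and over a shorter transcript its RPKM would be higher.

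In the labelled Rbm47-IKO pools the order of levels was the same but for Ebp, which fell behind Cyp51 and Msmo1. Sc5d was again highest at 51.3 ± 1.22 RPKM (SD, n = 3). Cyp51 at 27.7 ± 4.79 RPKM, Msmo1 at 26.6 ± 2.28 RPKM and Ebp at 24.4 ± 2.60 RPKM overlapped as neighbours. Hsd17b7 at 12.5 ± 1.21 RPKM overlapped Tm7sf2 at 12.1 ± 0.556 RPKM, which lay narrowly above the next gene in every pool. Dhcr7 at 10.4 ± 1.27 RPKM overlapped Nsdhl at 9.39 ± 1.08 RPKM, and Lss was again lowest at 4.35 ± 0.408 RPKM. Of the summed RPKM of the 9 genes, Sc5d held 44.3%, 47.1% and 53.1% in the control pools and 28.9%, 27.4% and 30.0% in the labelled Rbm47-IKO pools. This share was lower in every labelled Rbm47-IKO pool than in every control pool.

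**Figure D3:**
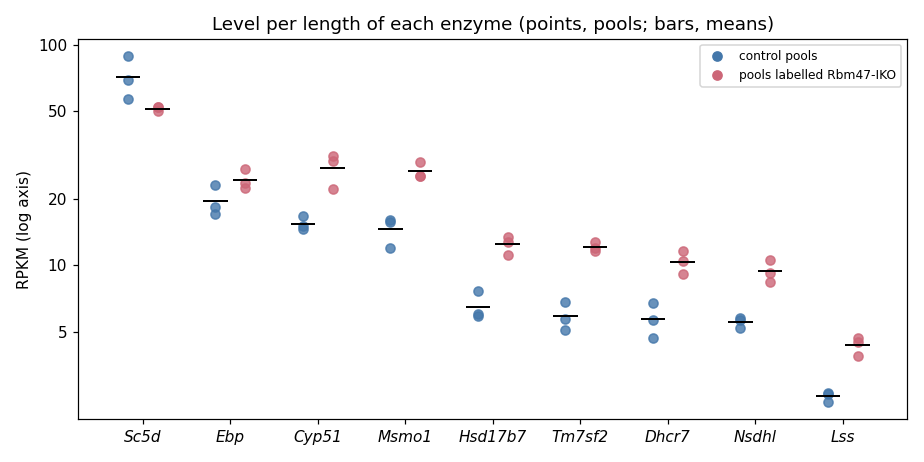
RPKM of the 9 genes on a log axis, ordered by their level in the control pools, with 1 point per pool, the mean of 3 pools as a bar, controls in blue and pools labelled Rbm47-IKO in red. Sc5d lies highest in both groups, and Lss lowest, and the groups stand apart upward for 7 genes and downward for Sc5d.

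Within a genotype the pools differed as well, and in part together over the 9 genes. On the log2 scale, labelled Rbm47-IKO pool 2 lay above its group's mean for 9 of 9 genes, by 0.10 on average, and labelled Rbm47-IKO pool 3 lay above it for 1 of 9, with a mean of -0.10. Control pool 1 had a mean deviation of -0.12 and control pool 3 of 0.09. These deviations are small beside the median difference of 0.84 between the genotypes. The within-genotype SD on the log2 scale ran from 0.11 for Lss to 0.23 for Sc5d and Dhcr7.

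Marker genes of other cell types differed between pools. Smooth muscle markers summed to 3302 CPM in labelled Rbm47-IKO pool 3 and 2803 CPM in control pool 2, and to 90.7 to 585.7 CPM in the other 4 pools. Without those 2 pools edgeR called 7 of the 9 genes and 327 of 16335 genes in all, and the median log2 fold change of the 9 was 0.84. Goblet markers summed to 21928, 25357 and 22354 CPM in the labelled Rbm47-IKO pools and to 19184, 18127 and 16446 CPM in the controls. Enteroendocrine markers summed to 126.9, 127.2 and 116.2 CPM against 154.3, 199.6 and 183.0 CPM, and none of the 5 goblet or 6 enteroendocrine markers was at 0 in all pools. Of these markers edgeR called 0 of the 5 goblet ones and 1 of the 6 enteroendocrine ones, as lower. The part of these lists in the result was not tested. Within each genotype Xist was highest in pool 2, at 258.1 CPM for the labelled Rbm47-IKO pools and 150.0 CPM for the controls. The X-linked Ebp was highest in those 2 pools of its groups, by 0.17 and 0.25 above its group mean on the log2 scale. So was the autosomal Tm7sf2, by 0.07 and 0.23. The X-linked Nsdhl was not, since control pool 3 deviated by 0.06 and control pool 2 by 0.03. Without those 2 pools edgeR called 0 of the 9 genes and 0 of all genes, and the median log2 fold change of the 9 was 0.71. In that fit 8 of the 9 had an unadjusted p under 0.05, not necessarily the same genes as with all pools. So did 2273 of 16334 genes in all. The labelled Rbm47-IKO pools that this fit kept had Xist at 75.6 and 40.3 CPM, the control pools at 1.09 and 0.686 CPM. Leaving out the 2 pools thus did not even out Xist between the groups, and sex and genotype cannot be told apart in this fit.

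**Figure D4:**
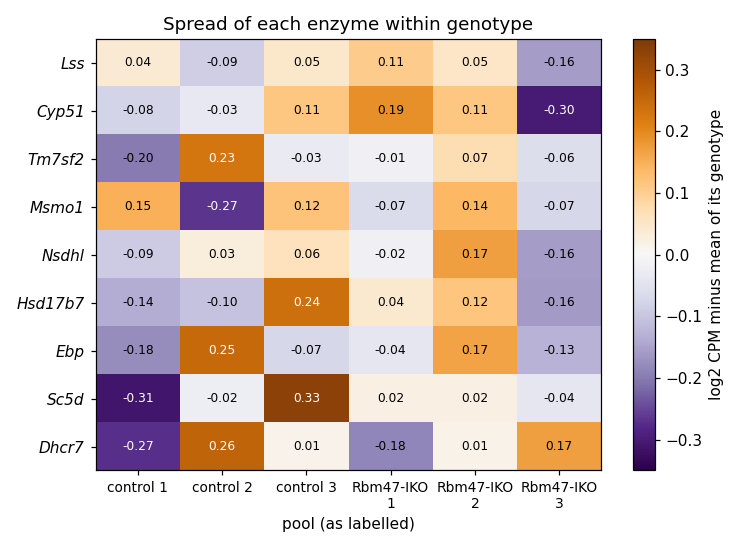
Deviation of each pool from the mean of its own genotype on the log2 scale for the 9 genes, with genes in rows, pools in columns, and colour (orange above the mean, purple below) and printed number giving the deviation. Labelled Rbm47-IKO pool 2 is above its group mean in every row, and the widest deviations are those of Sc5d in control pools 1 and 3.

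The calls among other genes of late sterol synthesis went both ways, but most of these genes were not called. Of 11 partners and other late enzymes, Faxdc2 was not analysed here, and of the 10 tested 2 were called higher, 1 lower and 7 not. Of the 10 folds 9 were above 0, with a median log2 fold change of 0.28. Erg28, a scaffold that holds the carbon 4 demethylation enzymes together, had 53.2, 53.5 and 42.0 CPM against 24.6, 26.7 and 27.5 CPM. It rose by 0.92 on the log2 scale (standard error 0.13, edgeR adjusted p = 0.0155). Pgrmc1, a heme-binding partner of Cyp51 and other P450 enzymes, had 195.0, 207.0 and 183.5 CPM against 276.1, 334.4 and 354.7 CPM. It fell by 0.72 on the log2 scale (standard error 0.13, edgeR adjusted p = 0.034). Lbr, the other delta-14 reductase, had a fold of 0.20 beside 1.05 for Tm7sf2 and was not called (edgeR adjusted p = 0.579), which does not show that it did not change. Of this list 0 genes were called without labelled Rbm47-IKO pool 1, labelled Rbm47-IKO pool 2 or control pool 3, and 1 without labelled Rbm47-IKO pool 3 or control pool 2.

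Upstream, of 11 mevalonate and squalene enzymes, 8 were called higher and 0 lower, against 3 not called, with a median log2 fold change of 1.12 beside 0.84 for the late enzymes. Sqle, the squalene epoxidase that feeds Lss, had 156.2, 168.4 and 116.4 CPM against 62.2, 59.3 and 61.4 CPM. It rose by 1.27 on the log2 scale (edgeR adjusted p = 0.01). Also called were Mvk (1.45), Mvd (1.49), Fdps (1.48), Fdft1 (1.42), Idi1 (1.12), Pmvk (1.07) and Acat2 (0.92), which carry out steps between acetyl-CoA and squalene. Hmgcs1, which makes the substrate of mevalonate synthesis, had 266.2, 282.6 and 227.7 CPM against 180.7, 168.3 and 213.7 CPM. Hmgcs1 was not called by edgeR, with a fold of 0.46 and no overlap between the groups (edgeR adjusted p = 0.128). DESeq2 called 10 of the 11 genes, Hmgcs1 among them, beside 7.57% of all genes tested. Without labelled Rbm47-IKO pool 2 or control pool 3, 0 of the 11 were called, without labelled Rbm47-IKO pool 1 the count was 2, and without control pool 1 or control pool 2 it was 5.

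Of 13 genes for SREBP control and its targets, 4 were called higher and 1 lower, with a median log2 fold change of 0.24. Srebf2, which encodes SREBP2, had 260.9, 263.0 and 241.3 CPM in the labelled Rbm47-IKO pools and 109.4, 110.3 and 109.2 CPM in the controls. The controls were nearly equal, and the fold was 1.22 (standard error 0.0957, edgeR adjusted p = 0.00596). Insig1, which retains SREBP in the endoplasmic reticulum, rose by 1.03 (edgeR adjusted p = 0.0434). Mbtps2, the site-2 protease that releases SREBP, fell by 0.89 on the log2 scale (edgeR adjusted p = 0.0393). The count was 0 without labelled Rbm47-IKO pool 2, and 3 without labelled Rbm47-IKO pool 1, labelled Rbm47-IKO pool 3, control pool 1 or control pool 3.

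The genes whose pattern over the 6 pools was nearest to the mean pattern of the 9 enzymes were found by the root mean square difference of centred log2 CPM, over 13480 genes with a median difference of 0.418. The nearest 10 were Ermp1, Jup, Llgl1, Maoa, Abcb10, Borcs7, Slc3a2, Unc119b, Ncstn and Slc7a9, at differences of 0.0337 to 0.0499 and log2 fold changes of 0.61 to 0.70. None of these 10 was in the lists of sterol genes. Among the 9 themselves the difference ran from 0.0628 for Nsdhl to 0.576 for Sc5d.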

How the data were processed

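Mucosal RNA was analysed in 6 pools, 3 per genotype, grouped by the genotype in the labels. For each pool the authors deposited the count of reads on 38561 Ensembl genes, not normalized. The authors also deposited CPM, the count scaled to the total of the pool, and RPKM, which divides it by gene length in kilobases. These columns matched a recomputation to within rounding and were not used. The submitters' processing notes name STAR 2.5.1a, Subread, featureCounts 1.4.6-p5 and GRCm38. The use of strand and the handling of reads that fit several places are not given in the sources used here. Symbols came from GENCODE M21 and start windows from RefSeq (GRCm38.p6).

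Counts were analysed in R 4.3.3 with edgeR 4.0.16 (filterByExpr, TMM, quasi-likelihood test, Benjamini-Hochberg adjusted p of 0.05 or less over 16425 genes), limma 3.58.1 and DESeq2 1.42.0, and figures in Python 3.11.15 with matplotlib 3.10.9. CPM and RPKM in the text use TMM library sizes. Standard errors are the fold divided by the root of its F value. Centred log2 CPM used a prior count of 2. The fit was tested on simulated data of 3 pools against 3. There it called 5.58% of 1.5-fold, 34.8% of 2-fold and 73.1% of 4-fold changes, so a gene not called may still differ. No pair of pools held identical counts. Depth was 31560320 to 38951830 counts, whose precision covers counting error only. P-values measure the spread between pools, which may be partly technical, and an exact permutation test of 3 pools against 3 cannot go below 0.1.

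The members and lists were chosen with earlier results of these data known. Named were the 9 genes, Rbm47, list genes past the threshold with Hmgcs1, Sqle, Srebf2 and Insig1, and the 10 genes of most similar pattern. Some genes of the lists are counted but not reported here by name. Lbr, Xist, Apob, Npc1l1, Npc2, Abcg5, Abcg8, Soat2, genes that share exons with members, and the motifs were added after values were seen. Of 13 marker lists, those given in the text were also chosen then. Alternatives were 16 planned (DESeq2, other scalings and filters, a robust fit, limma-voom, a replicate block, no immunoglobulin genes, each pool left out) and 3 added after the data were seen (a GC offset, and fits without the 2 pools highest in smooth muscle genes or in Xist).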

Additional observations from a re-analysis of the deposited data

How the results depend on the processing

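Over the 19 alternatives no gene of the 9 changed sign. The lowest and highest log2 fold changes were 0.95 and 1.19 for Tm7sf2, 0.23 and 0.51 for Ebp, and -0.62 and -0.29 for Sc5d. Ebp and Sc5d were called in 0 of the 19, and Dhcr7 in 11. The number of genes called, 443 in the main analysis, was 1243 with DESeq2, 100 with the replicate block, 270 with the GC offset and 0 without the 2 pools highest in Xist (2273 genes had an unadjusted p under 0.05), and 0 to 431 when 1 pool was left out. Of the 9 genes, 7 in the main analysis, 1 was called with the replicate block, 6 with the GC offset, 0 without the 2 Xist-high pools, and 0 to 6 when 1 pool was left out. Their median log2 fold change was 0.71 without the 2 Xist-high pools and 0.77 to 0.87 when 1 pool was left out. The cause of these changes was not tested, beyond the fewer pools in the fits that left some out.

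With the replicate block 0 of the partners, 5 mevalonate genes and 3 SREBP genes were called, against 3, 8 and 5 in the main analysis. The GC offset left 1 partner and 3 SREBP genes, and leaving out the 2 muscle-high pools also left 1 and 3. All 3 lists had 0 called without the 2 Xist-high pools. Leaving out 1 pool gave 0 to 3 partners, 0 to 6 mevalonate genes and 0 to 4 SREBP genes. Of the sterol uptake genes, 0 in the main analysis, DESeq2 called 2, and 1 was called with upper-quartile factors, library size alone, the filter of 1 CPM, the robust fit and limma-voom, and 0 to 1 when 1 pool was left out. Pools with the same number deviated with correlations of 0.408, -0.00258 and -0.277, so the numbers were not taken to pair the pools.

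Log2 fold change was related to GC content across 16221 genes (Spearman's rho 0.271, genes not being independent), and the median GC content was 46.2% for the 9 genes and 49.8% for all genes tested. With the GC offset their median log2 fold change was 0.82. Dhcr7 was no longer called, with a log2 fold change of 0.81 against 0.87 in the main analysis.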

Other observations

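Genes that move sterol into and out of the enterocyte ran both ways, and none passed the edgeR test. Of 10 genes for sterol uptake, efflux and packaging, edgeR called 0, with 7 at an unadjusted p under 0.05 and 2 called by DESeq2. Of all 16425 genes tested, 2756 had an unadjusted p under 0.05 in edgeR and DESeq2 called 1243. Of the 10 folds 4 were above 0, and the median log2 fold change was -0.22. Every labelled Rbm47-IKO pool was above every control for 3 of the 10 and below for 4, beside 11.7% and 11.6% of all genes tested. Npc1l1, the transporter that takes up cholesterol from the lumen, had a log2 difference of 0.30 (edgeR adjusted p = 0.271), and Npc2, which carries cholesterol inside the lysosome, had 0.32 (edgeR adjusted p = 0.234). Both were among the 3 above. Abcg5 and Abcg8, the partner subunits of the pump that returns sterol to the lumen, had -0.31 and -0.39 (edgeR adjusted p = 0.187 and 0.13). Soat2, which esterifies cholesterol, had -0.36 (edgeR adjusted p = 0.214). Apob, the fourth gene below, which encodes the scaffold of the chylomicron, had -0.87 (edgeR adjusted p = 0.0583).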
